A study of Mus musculus with 94 samples.

Results

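The effect of indomethacin (INDO) alone on 4T1 tumors was described on day 3 by setting the 5 tumors labelled INDO on day 3 against the 5 untreated control tumors of the same day. These were 10 of the 94 tumors of the series, chosen by their labels and not by any measured value. The paper counts its days from irradiation and not from implantation, and its mice already bore tumors when treatment groups were formed. 4T1 is a mouse mammary carcinoma line; 200k cells were implanted in the right hind limb of female BALB/c mice at 8 weeks of age. INDO tumors came from mice that drank water with 30 mg/L of the drug from the start of treatment onwards, control tumors from mice that received neither the drug nor radiation, and the labels give no engineered allele for either group. RNA of the whole tumor was sequenced, so cancer cells, host cells inside the tumor and any adjoining host tissue were measured together, and fewer cells of a type cannot be told apart from less RNA per cell. Expression is given as CPM, the reads of a gene per 1 M reads of its library after scaling.

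INDO is a nonsteroidal anti-inflammatory drug that blocks the cyclooxygenases COX1 and COX2, the enzymes that turn arachidonic acid into prostaglandin H2. Downstream synthases convert this into prostaglandin E2, prostacyclin, thromboxane and other lipids that act on G protein-coupled receptors of endothelial cells, fibroblasts, platelets and immune cells. In tumors, prostaglandin E2 is known for promoting vessel growth and for dampening T cell, NK cell and dendritic cell activity. The drug acts on enzyme activity, so the RNA of its targets is not by itself a measure of dosing.

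Total counts ran between 34.7 and 49.4 M in the INDO tumors, with a median of 41.0 M, and between 44.0 and 87.2 M in the controls, with a median of 64.5 M. Reads of mitochondrial genes took 3.57 to 8.04% of the counts in INDO tumors and 2.50 to 4.46% in controls. Structural RNA took 3.94% in INDO tumor 1 and 12.8 to 17.1% in the other INDO tumors, against 6.69 to 10.2% in controls, and 26805 to 27580 genes were detected in INDO tumors, against 27755 to 28899 in controls. The part of these differences in the results was not tested. One library stood apart: INDO tumor 3 correlated with the other INDO tumors down to r = 0.918 across genes, against at least 0.96 among the other 4 and at least 0.954 among the controls, and its summed T cell markers were 795 CPM, against at most 115 CPM in the other INDO tumors and at most 192 CPM in controls. The edgeR comparisons of genes and lists on day 3 and the tests between days were therefore also made without it, while the gene classes, DESeq2 and the calls within each day of the fit over several days were made with it.

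Of 21814 genes tested with edgeR's quasi-likelihood test, 519 were higher (2.38%) and 862 lower (3.95%) in INDO tumors than in controls at a Benjamini-Hochberg adjusted p under 0.05, 6.33% in all, and the median log2 fold change was -0.004. Without regard to that test, every INDO tumor lay above every control for 2.79% of the genes and below for 3.65%, or 6.45% in either direction. The spread in this fit was estimated from all 19 tumors of day 3, which include 5 tumors given 6 Gy and 4 given 6 Gy with INDO. Without INDO tumor 3, 536 genes were higher (2.41%) and 1086 lower (4.89%), of which 351 and 727 were also called with it. When only the 10 tumors were fitted, 73 genes were higher (0.377%) and 408 lower (2.11%), of which 65 and 393 were shared with the first fit. Single tumors moved the counts as well: the higher calls numbered 110 without control tumor 3, 155 without control tumor 5, and 239, 339 and 212 without INDO tumors 2, 4 and 5, and the lower calls 488, 514 and 511 without INDO tumor 2, INDO tumor 5 and control tumor 3. Without control tumors 3 and 5 together, the deepest libraries, 33 genes were higher and 496 lower. The p-values measure only the spread between these tumors.

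The kinds of gene differed between the directions. Of the lower calls, 827 (95.9%) were protein coding, against 70.8% of all genes tested. Of the higher calls 201 (38.7%) were protein coding, while 237 (45.7%) were long noncoding RNAs or unclassified transcripts, against 19% of all genes tested, and 60 (11.6%) were pseudogenes, against 6.78%. The share of all counts in long noncoding RNAs was 2.97 to 3.68% in INDO tumors; in control tumors 1 to 5 it was 2.73, 3.16, 1.82, 3.31 and 1.89%, so control tumors 3 and 5 had the lowest shares. The part of this difference in the higher calls was not tested.

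Genes of fibroblasts and their matrix were lower in INDO tumors. Fibroblasts and pericytes build the collagen scaffold of a tumor and wrap its vessels. Of 26 listed markers tested, 16 were lower in INDO tumors (61.5% of the list, against 3.95% of all genes), none was higher, and their median log2 fold change was -1.07. Without INDO tumor 3 the count was again 16 with a median of -1.01. With the 10 tumors alone 15 were lower and 1 was higher, and DESeq2 called 18 lower and 1 higher. The gene with the smallest p of all genes, Gas1, was singled out for that rank and is not one of the 26 listed markers. It encodes a membrane protein that holds cells out of the cycle and serves as a Hedgehog co-receptor. It measured 3.12, 4.70, 3.27, 4.24 and 3.89 CPM in INDO tumors 1 to 5, against 14.3, 15.6, 15.2, 15.4 and 14.4 CPM in control tumors 1 to 5. The groups lay far apart with little spread in either, and the log2 fold change was -1.96 (SE 0.127, edgeR adjusted p = 1.2e-07).

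**Figure D1:**
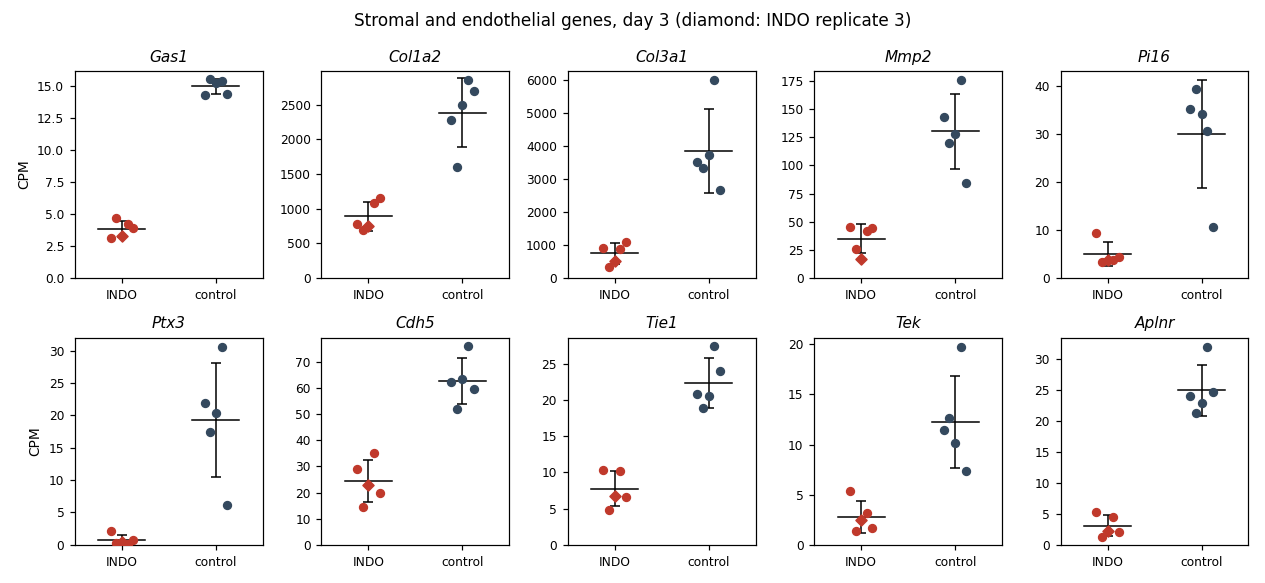
CPM of 10 genes in each tumor: Gas1, which is outside the fibroblast list, and genes of fibroblasts, matrix and vessels. INDO is left and control right in every panel, with points for tumors, a diamond for INDO tumor 3 and bars for the mean ± SD (n = 5 each). Each panel has its own linear axis from 0, and in all 10 panels the INDO tumors lie below the controls with no overlap. The 10 genes were picked from called genes with the results known. Over the whole lists, 13 of 26 fibroblast and 13 of 22 endothelial markers lay below the controls without overlap, against 3.65% of all genes. In the fibroblast list 1 lay above.

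The fibrillar collagens were among the genes of this list that fell. Col1a2, a chain of type I collagen, measured 777, 699, 754, 1082 and 1155 CPM in INDO tumors and 2279, 1595, 2495, 2860 and 2703 CPM in controls. Its log2 fold change was -1.42 (SE 0.211, edgeR adjusted p = 0.00097), and the highest INDO tumor lay below the lowest control. Col3a1, the chain of type III collagen (mouse GRCm38 chr1:45311538-45349706, plus strand), measured 903, 323, 527, 888 and 1094 CPM in INDO tumors and 3499, 3345, 3732, 5991 and 2665 CPM in controls. Here the fall was deeper, at -2.36 (SE 0.358, edgeR adjusted p = 0.0011), again with no overlap. Mmp2, a secreted gelatinase of fibroblasts, measured 45.2, 25.7, 17.3, 41.6 and 44.8 CPM in INDO tumors and 143, 119, 128, 176 and 84.5 CPM in controls, a log2 fold change of -1.90 (SE 0.229, edgeR adjusted p = 0.0003).

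Pi16, a marker of a fibroblast population found in many mouse tissues, measured 9.45, 3.42, 3.85, 3.72 and 4.41 CPM in INDO tumors and 35.2, 39.4, 34.3, 30.6 and 10.6 CPM in controls. Control tumor 5 lay nearest the INDO tumors, which was also seen for other genes of this kind, and the log2 fold change was -2.59 (SE 0.385, edgeR adjusted p = 0.00094). Further members that fell, named after their values were seen, were Col1a1 (-1.51), the other chain of type I collagen, the small proteoglycans Lum (-2.08), Dcn (-2.20) and Bgn (-1.11), the matrix glycoprotein Sparc (-1.38), and the growth factor receptors Pdgfra (-1.15) and Pdgfrb (-0.80), at edgeR adjusted p between 0.0011 and 0.0047. Not every matrix gene passed the test. Fn1, fibronectin, had a log2 fold change of -0.25 (edgeR adjusted p = 0.49), Postn of -0.83 (0.063) and Acta2, the actin of myofibroblasts, of -0.91 (0.075).

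To show the sequence before the start of Col1a2 and of Gas1, which is outside the list, the stretch that ends at the base before the annotated start was read from RefSeq (GRCm38.p6), 5′ to 3′ on the gene's strand, with each CCAAT box, a common promoter motif, in capitals:
Gas1, chr13:60177536-60177655, minus strand: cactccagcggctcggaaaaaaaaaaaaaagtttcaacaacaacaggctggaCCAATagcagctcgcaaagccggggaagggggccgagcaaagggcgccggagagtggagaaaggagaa
Col1a2, chr6:4505498-4505617, plus strand: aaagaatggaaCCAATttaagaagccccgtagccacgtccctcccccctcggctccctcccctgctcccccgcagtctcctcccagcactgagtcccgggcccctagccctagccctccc
The letters CCAAT, searched on both strands, were present in 12289 of 32851 promoter windows of equal length around annotated starts (37.4%). A window was listed for 16 of the 26 markers and 4 of these held CCAAT (25%), and among the 16 members that fell, 9 had a window and 3 of those held it (33.3%). The match in the Gas1 stretch lay 68 to 64 bases before the start and that in the Col1a2 stretch 109 to 105.

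Markers of the vessel lining fell as well. Endothelial cells line blood vessels and depend on signals such as VEGF and angiopoietins. Of 22 markers tested 14 were lower in INDO tumors (63.6%) and none was higher, with a median log2 fold change of -1.07. Without INDO tumor 3, 16 were lower with a median of -1.14, and with the 10 tumors alone 12 were lower. Tie1, a receptor of the angiopoietin pathway, measured 10.4, 4.82, 6.79, 10.2 and 6.55 CPM in INDO tumors and 20.8, 18.9, 20.6, 27.5 and 24 CPM in controls. Its log2 fold change was -1.53 (SE 0.223, edgeR adjusted p = 0.00089), and INDO tumor 2 was the lowest of the 10. Cdh5, the cadherin of endothelial junctions, measured 29.1, 14.6, 22.8, 35.3 and 19.7 CPM in INDO tumors and 62.2, 51.9, 63.6, 76.3 and 59.5 CPM in controls, a log2 fold change of -1.37 (SE 0.213, edgeR adjusted p = 0.0012).

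Tek, the angiopoietin receptor TIE2, measured 5.40, 1.36, 2.49, 3.12 and 1.67 CPM in INDO tumors and 11.4, 12.6, 10.1, 19.7 and 7.38 CPM in controls, with no overlap, and fell by 2.12 on the log2 scale (SE 0.357, edgeR adjusted p = 0.002). Esam, an adhesion molecule of endothelial junctions, fell by 1.52 (SE 0.234, edgeR adjusted p = 0.0011). Named after their values were seen, Plvap, a component of endothelial diaphragms, fell by 1.04 and Kdr, the main VEGF receptor, by 0.99, at edgeR adjusted p of 0.0021 and 0.0068. Pecam1, the adhesion molecule CD31, had a log2 fold change of -0.68 that missed the threshold with all tumors (edgeR adjusted p = 0.051) and passed it without INDO tumor 3 (-0.87, adjusted p = 0.01). Flt1, another VEGF receptor, had a log2 fold change of 0.15 and was not called.

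Summed over the list, the fibroblast markers reached 10140, 8933, 9462, 12450 and 12410 CPM in INDO tumors 1 to 5, against 20020, 13960, 21610, 24130 and 21920 CPM in control tumors 1 to 5. The endothelial markers summed to 409, 349, 396, 416 and 336 CPM in INDO tumors and 596, 511, 614, 675 and 616 CPM in controls. In neither list did the groups overlap. Markers of skeletal muscle, which lies next to a tumor of the hind limb, were also lower in most INDO tumors, at 592.7, 36.86, 6695, 66.88 and 651.1 CPM in INDO tumors and 5418, 5316, 3878, 17980 and 1502 CPM in controls. INDO tumor 3 was the 1 INDO tumor inside the range of the controls. None of the 18 muscle genes passed the edgeR test with all tumors (3 were lower at an unadjusted p under 0.05 and none was called by DESeq2), and 8 were lower without INDO tumor 3. The part of muscle or other adjoining tissue in the lower stromal levels was not tested.

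**Figure D2:**
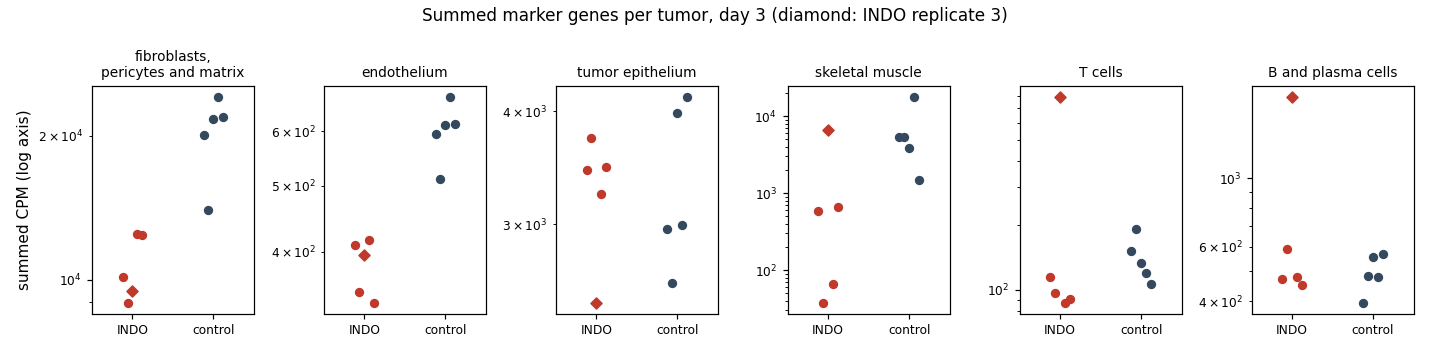
Summed CPM of 6 marker lists in each tumor on log axes, INDO left and control right, with a diamond for INDO tumor 3. The fibroblast and endothelial sums separate the groups, the epithelial sums overlap, muscle spans the widest range, and INDO tumor 3 alone is high for T and B cell markers.

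Fat cell genes were low and variable. Of 12 adipocyte markers tested 5 were lower in INDO tumors (41.7%) and all 12 had a negative log2 fold change, but 1 was called with the 10 tumors alone, and likewise 1 each time INDO tumor 2, 4 or 5 or control tumor 2 or 3 was left out. Control tumor 2 was the highest of the 10 tumors for all 12. Their sum was 360.7 CPM in it, 76.43 to 233.8 CPM in the other controls and 55.62 to 189.7 CPM in INDO tumors. Fabp4, a fatty acid binding protein of adipocytes that capillaries and macrophages also make, measured 7.26, 0.904, 4.90, 2.00 and 2.37 CPM in INDO tumors and 19.7, 30.9, 19.8, 30.3 and 8.95 CPM in controls. These groups did not overlap, and the log2 fold change was -2.65 (SE 0.468, edgeR adjusted p = 0.0029). The secreted products Cfd (-3.24) and Adipoq (-3.07) and the lipid droplet protein Cidec (-3.41) passed the test at edgeR adjusted p of 0.033 to 0.045, yet control tumor 5 lay within or below the INDO range for each, and without INDO tumor 3 Adipoq no longer passed (adjusted p = 0.054).

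The RNA of the drug's targets did not differ beyond the spread between tumors. Ptgs2, the gene of the inducible COX2, measured 91.2, 166, 130, 100 and 121 CPM in INDO tumors and 140, 116, 111, 102 and 102 CPM in controls. The groups overlapped throughout, with a log2 fold change of 0.09 (SE 0.23, edgeR adjusted p = 0.82). Ptgs1, the gene of COX1, measured 56.5, 48.9, 21.2, 65.3 and 36.6 CPM in INDO tumors and 30.4, 34.1, 49.0, 34.7 and 54.2 CPM in controls, a log2 fold change of 0.17 (edgeR adjusted p = 0.65). Pla2g4a, the phospholipase that frees arachidonic acid, had a log2 fold change of 0.02 (edgeR adjusted p = 0.96), and Ptges, the inducible prostaglandin E synthase, of 0.30 (0.30).

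Of 16 genes of prostaglandin synthesis and breakdown tested, 1 was lower (6.25%, against 3.95% of all genes) and none was higher in INDO tumors. At an unadjusted p under 0.05 edgeR gave 6 lower genes and 1 higher, DESeq2 called 4 lower and none higher, 3 were lower with housekeeping scaling, and 2 were lower without INDO tumor 1, INDO tumor 3 or control tumor 1. The lower gene was Ptgis, prostacyclin synthase, which measured 1.34, 0.126, 0.194, 0.650 and 0.624 CPM in INDO tumors and 3.53, 2.03, 4.26, 4.68 and 2.60 CPM in controls. No INDO tumor reached the lowest control, and the log2 fold change was -2.52 (SE 0.575, edgeR adjusted p = 0.015). Prostacyclin is made mainly by vessel walls and stromal cells, whose markers fell in the same tumors; the part of this in the Ptgis value was not tested.

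Hpgd, the dehydrogenase that inactivates prostaglandins, measured 0.972, 0.502, 1.25, 0.26 and 0.146 CPM in INDO tumors and 3.46, 4.69, 2.05, 2.4 and 0.638 CPM in controls. Control tumor 5 lay within the INDO range, and the log2 fold change of -2.08 missed the threshold with all tumors (edgeR adjusted p = 0.064) and passed it without INDO tumor 3 (-2.48, adjusted p = 0.042). Cbr1, a carbonyl reductase that can act on prostaglandin E2, measured 4.08 to 5.40 CPM in INDO tumors and 5.82 to 8.53 CPM in controls, with no overlap, but its log2 fold change of -0.44 was not called (edgeR adjusted p = 0.084). The prostaglandin reductase Ptgr1 (-0.69, adjusted p = 0.06), the aldose reductase Akr1b3 (-0.38, 0.097) and the constitutive synthase Ptges3 (-0.38, 0.1) did not pass either. The remaining synthases and reductases, Ptges2 (-0.23), Hpgds (0.06), Tbxas1 (0.07) and Ptgr2 (-0.09), overlapped widely between the groups. Of the secreted phospholipases, Pla2g5 had a log2 fold change of -0.24, and Pla2g2d reached 12.8 CPM in INDO tumor 3 and at most 0.276 CPM in the other INDO tumors, against at most 0.729 CPM in controls.

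Among 11 prostaglandin receptors and transporters, 1 was lower (9.09%, against 3.95% of all genes) and none was higher; at an unadjusted p under 0.05 edgeR gave 1 in each direction, and DESeq2 called 1 lower and none higher. Ptgfr, the receptor of prostaglandin F2alpha, measured 1.01, 0.552, 0.194, 0.572 and 0.312 CPM in INDO tumors and 3.93, 6.42, 3.12, 3.28 and 1.25 CPM in controls. The groups did not overlap, and the log2 fold change was -2.75 (SE 0.547, edgeR adjusted p = 0.0065). The prostaglandin E2 receptors were not called: Ptger1 had a log2 fold change of 0.48 (edgeR adjusted p = 0.16), Ptger2 of 0.14 (0.68), Ptger3 of -1.08 (0.29) and Ptger4 of -0.26 (0.55). The prostacyclin receptor Ptgir had a log2 fold change of -0.82 (edgeR adjusted p = 0.24). The prostaglandin D2 receptors Ptgdr and Ptgdr2 stayed under 0.4 CPM in all 10 tumors, and the thromboxane receptor Tbxa2r reached 3.57 CPM in INDO tumor 3 and at most 0.394 CPM elsewhere. The transporters Slco2a1 (0.28) and Abcc4 (-0.18) were not called. Alox5, the 5-lipoxygenase that makes leukotrienes from the same arachidonic acid, measured 4.96, 2.71, 1.80, 3.15 and 2.00 CPM in INDO tumors and 5.75, 11.6, 8.32, 6.37 and 5.55 CPM in controls, and was lower without overlap (log2 fold change -1.36, edgeR adjusted p = 0.011).

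Few inflammatory genes passed the test on this day. Of 32 cytokines and mediators 1 was lower (3.12%, against 3.95% of all genes) and none was higher. At an unadjusted p under 0.05 edgeR gave 3 higher and 5 lower, and DESeq2 called 1 higher and 2 lower. The lower one with all tumors was Il11, a cytokine that acts on fibroblasts. It measured 1.82, 1.88, 1.14, 3.02 and 1.83 CPM in INDO tumors and 3.69, 3.53, 3.77, 3.52 and 5.46 CPM in controls (log2 fold change -1.04, edgeR adjusted p = 0.017). The Il11 call was lost in 4 of 19 alternatives, with the 10 tumors alone and without control tumors 3 and 5 among them. With the 10 tumors alone edgeR called 1 other member lower and 1 higher. Il6 had a log2 fold change of -0.85 (edgeR adjusted p = 0.18). Il1a, an alarm cytokine, lay between 93.0 and 143 CPM in INDO tumors and between 63.6 and 91.0 CPM in controls without overlap, and its log2 fold change of 0.62 was not called (edgeR adjusted p = 0.064). With all tumors, none of 27 genes of the cAMP and immediate early response, which lies downstream of prostaglandin receptors, was called by edgeR or DESeq2, and 2 were lower at an unadjusted p under 0.05. Without INDO tumor 3 edgeR called 2 lower (7.41%, against 4.89% of all genes), and 7 were lower at an unadjusted p under 0.05. Their median log2 fold change was 0.068 with all tumors and -0.298 without INDO tumor 3. That tumor was the highest of the 10 for 15 of the 27 genes.

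Of 27 chemokines 4 were lower in INDO tumors (14.8%, against 3.95% of all genes), 2 with the 10 tumors alone and 9 with DESeq2. Pf4 and Ppbp are stored in platelets, and Pf4 is also made by macrophages. Pf4 measured 18.6, 15, 4.76, 11.6 and 5.60 CPM in INDO tumors and 31.5, 48.8, 33.7, 26.3 and 27.1 CPM in controls, with no overlap (log2 fold change -1.59, edgeR adjusted p = 0.014), and Ppbp fell by 2.15 (adjusted p = 0.0098). Ccl11, an eosinophil attractant of fibroblasts, fell by 2.24 (edgeR adjusted p = 0.016) and Ccl6, a chemokine of myeloid cells, by 1.45 (0.015). Ccl11 and Ccl6 were not called with the 10 tumors alone. Without INDO tumor 3, 7 chemokines were lower. Cxcl12, the CXCR4 ligand of stromal cells, then had a log2 fold change of -3.37 (edgeR adjusted p = 0.00081), against -1.97 (0.066) with all tumors: INDO tumor 3 had 38.8 CPM and the other INDO tumors 1.78 to 9.04 CPM, against 18.1 to 65.0 CPM in controls.

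Myeloid markers gave few calls. Among 26 macrophage and monocyte genes 1 was lower, Cd209f, a lectin of some tissue macrophages (log2 fold change -3.26, edgeR adjusted p = 0.035), a share near that of all genes, and 23 of 26 log2 fold changes were negative. This count depended on single tumors: 8 were lower without INDO tumor 1, 4 without INDO tumor 3, 2 without control tumor 1 or 5, and none without INDO tumor 2, 4 or 5, without control tumor 2 or 3 or with the 10 tumors alone; 12 were lower at an unadjusted p under 0.05 and DESeq2 called 5. Among 16 dendritic cell genes 1 was lower (6.25%, against 3.95% of all genes), the galactose lectin Clec10a (-2.10, edgeR adjusted p = 0.032). Cd209f lost its call in 10 and Clec10a in 8 of 19 alternatives, which include leaving out INDO tumor 2, 4 or 5. Among 10 mast cell genes 1 was lower (10%, against 3.95% of all genes), Kit, the stem cell factor receptor. Kit measured 7.12, 3.46, 6.62, 5.31 and 4.85 CPM in INDO tumors and 9.38, 9.54, 10.5, 8.02 and 8.89 CPM in controls (-0.76, edgeR adjusted p = 0.038). The groups did not overlap, but the call was lost in 13 of 19 alternatives, with the 10 tumors alone and without any of INDO tumors 2, 4 and 5 or control tumors 1, 2, 3 and 5 among them. None of 20 neutrophil genes was called in the edgeR fit of day 3, 2 were lower at an unadjusted p under 0.05, DESeq2 called 1 lower, and edgeR called 1 lower with the 10 tumors alone.

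Interferon-stimulated genes leaned the other way. These genes are switched on when type I interferon activates the transcription factor complex ISGF3, and most encode antiviral proteins. All 25 members tested had a positive log2 fold change, with a median of 0.67, against -0.004 over all genes, and for 25 of 25 the highest of the 10 tumors was an INDO tumor. The number past the threshold was small and moved with the tumors used: 4 of 25 (16%, against 2.38% of all genes) were higher with all tumors, and 13 of 25 (52.0%, against 2.41%) without INDO tumor 3. INDO tumor 3 was the lowest INDO tumor for 20 of the 25 genes. None was called without INDO tumor 2, INDO tumor 5 or control tumor 3, 2 without control tumor 4, 1 without control tumor 5 and 8 without control tumor 1. With the 10 tumors alone edgeR called none, 19 were higher at an unadjusted p under 0.05, and DESeq2 on all 19 tumors called 11.

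**Figure D3:**
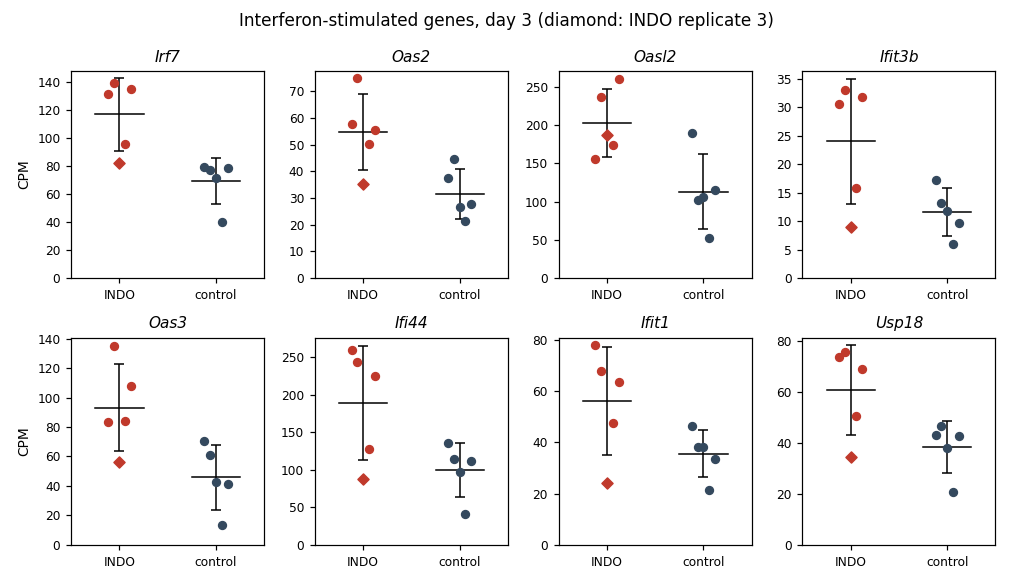
CPM of 8 interferon-stimulated genes in each tumor, INDO left and control right, with points for tumors, a diamond for INDO tumor 3 and bars for the mean ± SD (n = 5 each) on linear axes from 0. INDO tumor 3 lies low among the INDO tumors for most genes, and control tumor 4 is the lowest tumor in most panels.

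Irf7, the transcription factor that amplifies type I interferon production, measured 131, 139, 81.9, 95.6 and 135 CPM in INDO tumors and 78.9, 77.1, 71.3, 39.9 and 78.7 CPM in controls. The lowest INDO tumor lay just above the highest control, and the log2 fold change was 0.75 (SE 0.195, edgeR adjusted p = 0.03). Oas2, an enzyme that senses double-stranded RNA, measured 57.8, 75.0, 35.4, 50.3 and 55.5 CPM in INDO tumors and 37.4, 44.7, 26.6, 21.3 and 27.6 CPM in controls. INDO tumor 3 fell among the controls, and the log2 fold change was 0.80 (SE 0.203, edgeR adjusted p = 0.027). The related Oasl2 was higher by 0.84 (SE 0.243, edgeR adjusted p = 0.047) and Ifit3b, an antiviral protein of the IFIT family, by 1.05 (SE 0.308, 0.049). The calls were lost in 6 of 19 alternatives for Irf7, 7 for Oas2, 15 for Oasl2 and 12 for Ifit3b.

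Ifit3b measured 30.6, 33.0, 8.89, 15.9 and 31.7 CPM in INDO tumors and 17.2, 13.3, 11.8, 5.94 and 9.59 CPM in controls. INDO tumor 3 lay below 4 of the 5 controls, and without it the log2 fold change was 1.26 (edgeR adjusted p = 0.0076). Ifit3b and Ifit3 are near-identical neighbours, so the counts of each may hold reads of the other. Genes that missed the threshold with all tumors and passed it without INDO tumor 3, named after their values were seen, included Oas3 (1.16, edgeR adjusted p = 0.03), Ifit3 (1.16, 0.032), Ifi44 (1.10, 0.017), Ifit1 (0.85, 0.017) and the deubiquitinase-like Usp18 (0.81, 0.018). Isg15, the ubiquitin-like product that Usp18 removes, had a log2 fold change of 0.55 with all tumors and 0.71 without INDO tumor 3 and was not called in either fit (edgeR adjusted p = 0.22 and 0.1).

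The sites that ISGF3 binds hold 2 GAAA cores spaced by 2 bases. To show them in the genes of this list, the RefSeq stretches (GRCm38.p6) that end at the base before the start are given 5′ to 3′ on the gene's strand, with each GAAANNGAAA in capitals; on the opposite strand it reads TTTCNNTTTC:
Ifit3b, chr19:34607757-34607956, plus strand: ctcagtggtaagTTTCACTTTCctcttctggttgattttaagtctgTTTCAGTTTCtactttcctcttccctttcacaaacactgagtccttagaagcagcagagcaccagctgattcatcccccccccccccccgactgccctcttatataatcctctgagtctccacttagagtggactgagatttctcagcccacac
Ifit3, chr19:34583329-34583528, plus strand: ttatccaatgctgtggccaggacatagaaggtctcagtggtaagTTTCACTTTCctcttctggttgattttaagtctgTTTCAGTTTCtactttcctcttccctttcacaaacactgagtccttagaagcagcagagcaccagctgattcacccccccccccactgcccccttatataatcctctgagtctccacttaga
Ifit1, chr19:34640689-34640888, plus strand: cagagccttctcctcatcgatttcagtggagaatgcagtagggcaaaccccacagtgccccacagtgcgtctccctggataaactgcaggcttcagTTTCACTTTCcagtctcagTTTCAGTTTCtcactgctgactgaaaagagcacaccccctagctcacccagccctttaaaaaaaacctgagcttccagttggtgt
Oas3, chr5:120777660-120777759, minus strand: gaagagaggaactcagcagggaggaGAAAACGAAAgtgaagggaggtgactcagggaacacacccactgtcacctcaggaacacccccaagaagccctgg
Isg15, chr4:156200819-156200918, minus strand: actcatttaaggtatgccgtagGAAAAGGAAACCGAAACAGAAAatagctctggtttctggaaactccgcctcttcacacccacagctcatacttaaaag
Searched on both strands, GAAANNGAAA was present in 1131 of 32851 promoter windows (3.44%). A window was listed for 18 of the 25 genes and 10 of these held a match (55.6%). Ifit3b and Ifit3 carried a pair of matches in the same surroundings, at 188 to 179 and 154 to 145 bases before the start of Ifit3b and at 156 to 147 and 122 to 113 before that of Ifit3. In Ifit1 the matches lay 104 to 95 and 85 to 76 bases before the start, in Oas3 75 to 66. Isg15 held 3 overlapping matches between 78 and 57 bases before its start. A match is a property of the letters, and whether a factor was bound was not measured. Isg15 had the most matches of the 5 genes shown and was the 1 of them that passed the test in neither fit.

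Other parts of the interferon response gave few calls. The 16 interferon gamma-inducible GTPases all had positive log2 fold changes with a median of 0.90, but none was called with edgeR or DESeq2 and 1 passed an unadjusted p under 0.05. Gbp2, chosen from them after its values were seen, shows the spread: 368, 694, 720, 165 and 1305 CPM in INDO tumors and 742, 284, 220, 52.3 and 302 CPM in controls (log2 fold change 1.02, edgeR adjusted p = 0.31). All 11 MHC class I genes had positive log2 fold changes with a median of 0.605, none was called by edgeR or DESeq2, and 3 were higher at an unadjusted p under 0.05. INDO tumor 5 was the highest of the 10 tumors for 10 of these 11 genes and for all 16 GTPases. Among 17 genes of cytosolic DNA sensing and interferon signalling Irf7 was the 1 call (5.88%, against 2.38% of all genes higher). Cgas, the DNA sensor, had a log2 fold change of -0.15 (edgeR adjusted p = 0.61), its adaptor Sting1 of -0.18 (0.46), the transcription factor Irf3 of -0.02 (0.93), and the interferon receptor chains Ifnar1 and Ifnar2 of -0.18 (0.28) and -0.19 (0.36). Enpp1, which degrades the second messenger of Cgas, had a log2 fold change of -0.43 (edgeR adjusted p = 0.12).

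**Figure D4:**
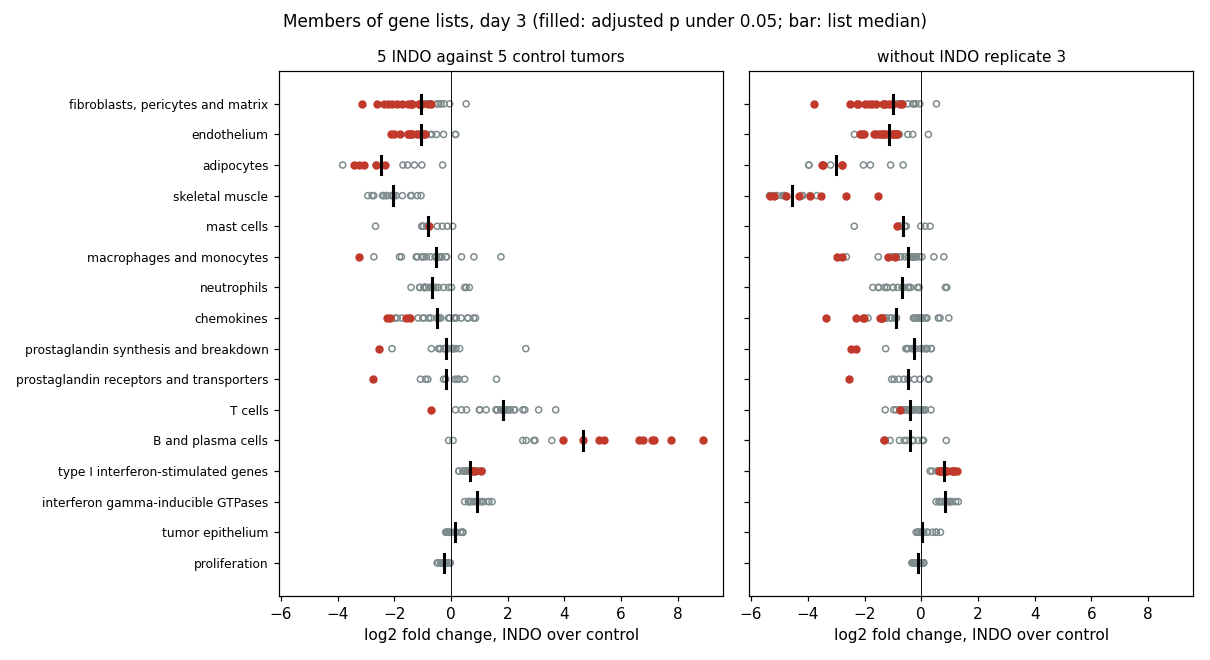
Log2 fold change (INDO over control) of each member of 16 gene lists that was tested with all tumors, with all tumors in the left panel and without INDO tumor 3 in the right panel; filled points passed the edgeR test, open points did not, and the bar is the list's median. Most fibroblast and endothelial genes lie below 0 in both panels, interferon-stimulated genes lie above 0 in both with more calls on the right, and the B cell genes lie high on the left alone.

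The lymphocyte calls came from 1 tumor. With all tumors, edgeR called 10 of 17 genes of B and plasma cells (58.8%), and for 16 of 17 the highest of the 10 tumors was INDO tumor 3. Igkc, the constant region of the kappa light chain, measured 460 CPM in INDO tumor 3, between 0.052 and 0.151 CPM in the other INDO tumors and between 0.0812 and 0.358 CPM in controls. Ms4a1, the B cell antigen CD20, measured 76.1 CPM in INDO tumor 3 and at most 0.186 CPM in the other INDO tumors, against at most 0.183 CPM in controls. Pax5, the B cell identity factor, reached 110 CPM and Jchain, which joins secreted antibodies, 77.5 CPM in INDO tumor 3, while no other tumor exceeded 0.603 and 0.269 CPM. Without that tumor no B cell gene was called higher, none of them had an unadjusted p under 0.05 for a higher level, and DESeq2 called none even with it. The count was also 0 without control tumor 3, 1 without control tumor 5 and 3, 5 and 6 without control tumors 1, 2 and 4. Ebf1, a factor of B cells that stromal and fat cells also express, was lower without INDO tumor 3 (-1.32, edgeR adjusted p = 0.0075), against 0.07 with all tumors.

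The same tumor carried lymph node genes. Their sum over 9 listed genes was 438.8 CPM in INDO tumor 3 and 13.63 to 148.9 CPM in the other INDO tumors, against 31.1 to 242.2 CPM in controls, so that control tumor 2 and others also held some of them. Glycam1, the mucin of high endothelial venules, measured 153 CPM in INDO tumor 3 and at most 0.0621 CPM in the other INDO tumors, against at most 0.335 CPM in controls. Cr2, a complement receptor of B cells and follicular dendritic cells, reached 101 CPM there and at most 0.538 CPM in the other INDO tumors, against at most 0.814 CPM in controls. The MHC class II genes H2-Oa and H2-Ob, which are typical of B cells, measured 12.0 and 51.1 CPM in INDO tumor 3, and at most 1.03 and 1.18 CPM in the other INDO tumors, against at most 0.532 and 0.946 CPM in controls. Without INDO tumor 3 neither MHC class II nor lymph node genes gave a call with edgeR, and none had an unadjusted p under 0.05.

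T cell genes gave no higher call with either tool in the fit of day 3; the later fit of 29 tumors called 6 of 26 higher on day 3, with INDO tumor 3 included. For 25 of 26 the highest tumor was INDO tumor 3, 15 were higher at an unadjusted p under 0.05 with all tumors, and none was without INDO tumor 3. Cd8a, the co-receptor of cytotoxic T cells, measured 1.59, 1.08, 28.3, 0.26 and 1.85 CPM in INDO tumors and 1.30, 2.82, 0.56, 0.366 and 0.406 CPM in controls (log2 fold change 2.60, edgeR adjusted p = 0.14; without INDO tumor 3 0.14, 0.94). Cd4 measured 48.5 CPM in INDO tumor 3 and 1.09 to 3.64 CPM in the other INDO tumors, against 1.45 to 9.97 CPM in controls. Gzmb, the granule protease of cytotoxic cells, had a log2 fold change of 1.10 (edgeR adjusted p = 0.33) and Ifng, interferon gamma, of 0.99 (0.53). Of 18 cytotoxic and NK cell genes none was called with edgeR or DESeq2, and none had an unadjusted p under 0.05.

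In the T cell list 1 of 26 genes was lower (3.85%, against 3.95% of all genes). Thy1, an antigen of T cells that fibroblasts and neurons also carry, measured 52.6, 43.6, 58.0, 49.7 and 43.5 CPM in INDO tumors and 81.2, 76.4, 82.2, 86.0 and 76.5 CPM in controls. The groups did not overlap and INDO tumor 3, with its lymphocyte genes, was the highest INDO tumor by a small margin; the log2 fold change was -0.70 (edgeR adjusted p = 0.0017).

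Markers of the carcinoma cells themselves gave no call. None of 15 epithelial genes was called by edgeR or DESeq2 (1 was higher at an unadjusted p under 0.05), and their sum was 2450 to 3733 CPM in INDO tumors and 2578 to 4153 CPM in controls. None of 24 proliferation genes was called by either tool and 2 were lower at an unadjusted p under 0.05; all 24 log2 fold changes were negative, with a median of -0.26, and INDO tumor 3 was the lowest INDO tumor for 21 of them. None of 22 hypoxia and glycolysis genes was called with edgeR, 3 were higher at an unadjusted p under 0.05 and DESeq2 called 1 higher. Of 17 genes of the p53 response 2 were lower (11.8%, against 3.95% of all genes). These were the ectodysplasin receptor Eda2r (-1.60, edgeR adjusted p = 0.0042) and the AKT inhibitor Phlda3 (-0.75, 0.017). Eda2r lost its call in 1 of 19 alternatives. Phlda3 lost it in 5, with the 10 tumors alone and without control tumor 3 among them. Of 19 genes of protein folding stress 2 were lower (10.5%, against 3.95% of all genes). These were the small heat shock protein Hspb1 (-1.35, edgeR adjusted p = 0.049) and the transcription factor Xbp1 (-0.44, 0.0495). But Hspb1 lost its call in 16 and Xbp1 in 13 of 19 alternatives. Both were lost with the 10 tumors alone and without INDO tumor 2, 4 or 5 or control tumor 3, 4 or 5.

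Of 17 metalloproteinases 5 were lower (29.4%, against 3.95% of all genes), and 3 without control tumors 3 and 5. Beside Mmp2 these included Adamts5, an aggrecanase (log2 fold change -2.44, edgeR adjusted p = 0.0051), and Mmp19 and Adamts4. Mmp19 measured 41.1, 26.6, 17.9, 29.5 and 23.2 CPM in INDO tumors and 58.4, 64.8, 44.6, 49.7 and 42.6 CPM in controls, with no overlap (-0.91, edgeR adjusted p = 0.0061). Adamts4, another aggrecanase, measured 25.2 to 39.5 CPM in INDO tumors and 43.3 to 68.0 CPM in controls (-0.70, edgeR adjusted p = 0.018). Mmp13, a collagenase, went the other way with a log2 fold change of 0.53 and no overlap, at 258 to 346 CPM in INDO tumors and 160 to 242 CPM in controls, but was not called with all tumors (edgeR adjusted p = 0.1); it was called with the 10 tumors alone (0.56, edgeR adjusted p = 0.0402) and by DESeq2 (0.55, 0.0474).

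Clock genes gave 1 call in each direction among 16 tested (6.25% each, against 2.38% of all genes higher and 3.95% lower). Per3, a repressor of the circadian clock, measured 22.3, 21.1, 9.61, 23.5 and 20.8 CPM in INDO tumors and 11.8, 11.7, 13.4, 12.5 and 12.4 CPM in controls. INDO tumor 3 was the lowest of the 10 tumors while the other 4 INDO tumors lay above every control, and the log2 fold change was 0.65 with all tumors (SE 0.191, edgeR adjusted p = 0.048) and 0.82 without that tumor (adjusted p = 0.0019). The call was lost in 14 of 19 alternatives, which include housekeeping scaling, the 10 tumors alone and leaving out any other single tumor of the 10 (adjusted p from 0.0507 to 0.103). Npas2, an activator of the clock, was lower (-1.36, edgeR adjusted p = 0.0049), at 0.579 to 1.33 CPM in INDO tumors and 1.37 to 3.26 CPM in controls. The Npas2 call was lost in 2 of 19 alternatives, with the 10 tumors alone and with a block for the replicate number. The hour at which tumors were taken was not given in the sources used here.

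Named genes with the largest falls were taken from 398 with an established symbol that were called, expressed and without overlap. Ptx3, a secreted pattern recognition protein of fibroblasts and endothelium, measured 2.11, 0.301, 0.471, 0.130 and 0.791 CPM in INDO tumors and 21.9, 17.5, 20.3, 30.5 and 6.20 CPM in controls. All INDO tumors were far below the controls, and the log2 fold change was -4.64 (SE 0.664, edgeR adjusted p = 0.00085). Aplnr, the apelin receptor of growing vessels, measured 5.25, 1.21, 2.3, 4.47 and 2.12 CPM in INDO tumors and 24, 21.2, 22.8, 31.9 and 24.6 CPM in controls, a log2 fold change of -3.02 (SE 0.401, edgeR adjusted p = 0.00053). Scn7a, a sodium channel gene, fell by 4.10 on the log2 scale (edgeR adjusted p = 0.0089), with control tumor 4 the highest at 47.6 CPM.

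Several of the others encode secreted proteins of connective tissue. Sfrp2, a secreted Wnt modulator, measured 5.42, 1.31, 2.91, 0.884 and 2.89 CPM in INDO tumors and 24.5, 19.1, 26.4, 37.0 and 8.02 CPM in controls, and fell by 3.10 on the log2 scale (edgeR adjusted p = 0.0012). Fgf7, a fibroblast growth factor that acts on epithelia, measured 0.598 to 1.08 CPM in INDO tumors and 2.05 to 6.76 CPM in controls, a fall of 2.62 (edgeR adjusted p = 0.0012). Svep1, an adhesion protein of the matrix, measured 7.91 to 22.2 CPM in INDO tumors and 29.4 to 127 CPM in controls, a fall of 2.77 (edgeR adjusted p = 0.00062). The lubricin gene Prg4 fell by 2.98, the sulfatase Arsi by 2.98, the adhesion receptor Adgrd1 by 2.95, Fibin by 2.84, the glycosyltransferase Galnt16 by 2.77, the GDNF co-receptor Gfra1 by 2.60 and the convertase Pcsk5 by 2.57, at edgeR adjusted p between 0.00094 and 0.0042.

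The largest rises among named genes were smaller, and were taken from 95 such genes after 99 with provisional symbols or of pseudogenes had been set aside. Psg17, a pregnancy-specific glycoprotein, measured 17.2, 18.6, 12.0, 22.9 and 15.9 CPM in INDO tumors and 10.7, 9.70, 5.74, 8.30 and 5.28 CPM in controls. The groups did not overlap, and the log2 fold change was 1.12 (SE 0.207, edgeR adjusted p = 0.0039); it was the 1 named rise of 28 that passed under every alternative tried. Trpm6, a magnesium channel, measured 93.1, 85.9, 50.5, 91.4 and 69.4 CPM in INDO tumors and 49.6, 38.7, 39.0, 29.4 and 43.6 CPM in controls, with INDO tumor 3 close to the controls (0.96, edgeR adjusted p = 0.0053). Apol9a, an apolipoprotein L gene induced by interferon, measured 92.9, 125, 82.2, 88.6 and 151 CPM in INDO tumors and 81.7, 68.8, 49.8, 34.4 and 56.4 CPM in controls (0.89, edgeR adjusted p = 0.018). Its close relatives can share its reads, so the value is uncertain between them.

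The other rises of this rule were Trim43b (1.35) and Trim34b (0.82) of the TRIM family, the channel Trpv3 (1.05), the zinc finger gene Zfp773 (1.03), the sulfotransferase Ndst3 (1.02), the histone variant Macroh2a3 (1.07), the synaptic scaffold Dlgap1 (0.98), the adaptor Hsh2d (0.80), the unclassified transcript Phxr4 (1.30), and the noncoding Atxn7l1os1 (1.06) and Runx2os2 (0.80), at edgeR adjusted p between 0.0047 and 0.049. Ifi208, of the interferon-inducible p200 family, had the largest log2 fold change of them at 1.79 (edgeR adjusted p = 0.035). INDO tumor 3 held 19.4 CPM and the other INDO tumors 3.10 to 5.79 CPM, against 1.59 to 3.08 CPM in controls, and without INDO tumor 3 it was not called (1.04, adjusted p = 0.092). Of the 28 named genes called higher in all lists and rules, 25 were not called without control tumors 3 and 5 and 18 were not called with the 10 tumors alone.

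The remaining genes that the study named for its sequencing were not called. Il10, an anti-inflammatory cytokine, measured 3.81, 4.47, 1.72, 3.07 and 1.98 CPM in INDO tumors and 2.18, 3.27, 0.691, 0.997 and 1.11 CPM in controls, a log2 fold change of 0.87 (edgeR adjusted p = 0.29). The nuclease genes Mus81 (-0.02) and Eme1 (-0.19), the ADP-ribosyltransferase genes Parp1 (-0.23) and Parp8 (0.22), the macrophage lectin Siglec1 (-0.87), the dendritic cell factor Batf3 (-0.43), and the cytokines Csf2 (0.57) and Ccl2 (0.12) had edgeR adjusted p between 0.13 and 0.94. Ifnb1 and Ifna4 had too few counts to be tested.

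To place day 3 in time, INDO was set against its own day's controls on days 1, 3 and 7 in a fit of 29 tumors, in which the controls of each day are separate tumors and day 1 has 4 controls. Of 22073 genes, 856 were higher (3.88%) and 1511 lower (6.85%) in INDO tumors at day 1. At day 3 there were 1035 higher (4.69%) and 1340 lower (6.07%) genes in this fit, and at day 7 2818 (12.8%) and 3171 (14.4%). Of 26 fibroblast markers 11, 18 and 20 were lower on days 1, 3 and 7, and of 22 endothelial markers 12, 17 and 16 were. Interferon-stimulated genes were called higher on day 3 alone, with 0, 8 and 0 of 25. At 14, 3 and 5 of 32, lower cytokines and mediators were most numerous on day 1, as were lower mast cell genes, at 9, 2 and 7 of 10. Mitochondrially encoded genes were higher for 9, 2 and 12 of 13.

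**Figure D5:**
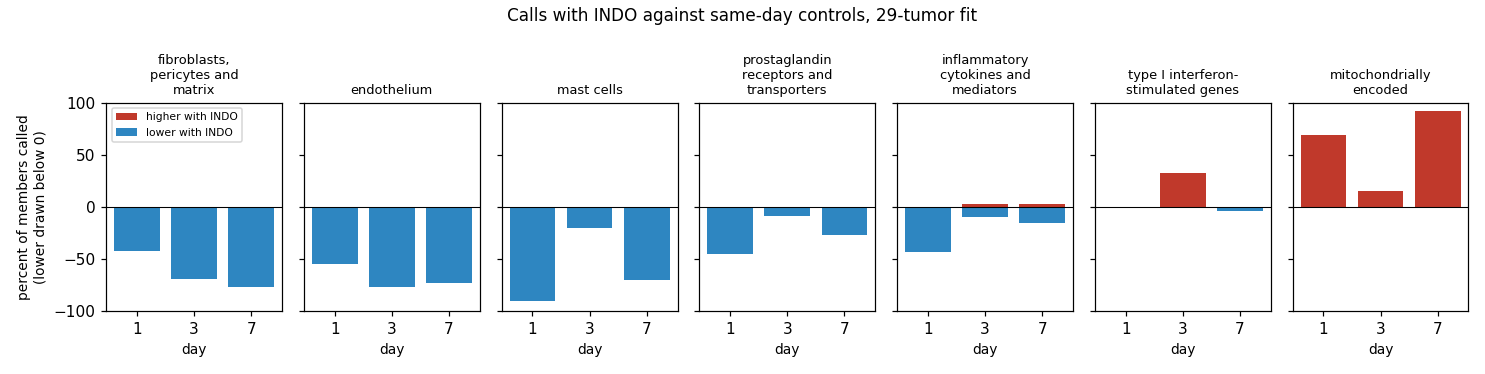
Percent of the members of 7 gene lists called higher or lower in INDO than in control tumors on days 1, 3 and 7, each day against its own controls in the 29-tumor edgeR fit. Fibroblast and endothelial genes are lower on all 3 days, and calls of higher interferon-stimulated genes appear on day 3.

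A difference between days needs its own test, and edgeR called no gene for a change in the INDO effect between day 3 and day 1 (0% of 22073; smallest adjusted p 0.18) or between day 3 and day 7 (0%; smallest adjusted p 0.305). At an unadjusted p under 0.05 there were 2152 and 1987 genes, and DESeq2 called 61 and 15. Irf7 had log2 fold changes of -0.22, 0.76 and -0.18 on days 1, 3 and 7, a difference of 0.98 from day 1 (edgeR adjusted p = 0.26) and of 0.94 from day 7 (0.39). Ptgs2 had -1.0, 0.11 and 0.18, of which the day 1 value passed the test (edgeR adjusted p = 0.0017) and the difference of 1.12 between day 3 and day 1 did not (0.24). DESeq2 had the Ptgs2 difference from day 1 among its 61 calls (1.12, adjusted p = 0.0299).

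The stromal genes and Gas1 kept 1 direction on the 3 days. Col3a1 had log2 fold changes of -1.20, -2.36 and -2.29 on days 1, 3 and 7, Gas1 of -1.29, -1.95 and -1.50, Aplnr of -1.94, -3.01 and -2.47, and Cdh5 of -0.80, -1.35 and -1.41, all past the edgeR threshold (adjusted p at most 0.0281). Ptgfr was lower by 3.24, 2.76 and 2.71 on the log2 scale on days 1, 3 and 7, and Il11 by 0.88, 1.02 and 0.96. Il6 was lower on day 1 (-2.66, edgeR adjusted p = 0.0003) and had -0.85 and -0.74 on days 3 and 7, where it was not called; the difference of 1.80 between day 3 and day 1 did not pass (adjusted p = 0.26).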

How the data were processed

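The authors sequenced total RNA from whole tumors. The submitters' notes name cutadapt, STAR, Partek 11.0.24.0328 and mm10. The labels and the methods name different kits of the same stranded total RNA family, and neither the counting tool nor the annotation was given in the sources used here. What the authors deposited are expected counts (estimated, with 1 decimal, not normalised) for 49080 genes, which were rounded to whole numbers. Groups came from the titles.

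The counts were tested with edgeR 4.0.16 (R 4.3.3, limma 3.58.1) by the quasi-likelihood F test after filterByExpr and TMM scaling, with the 19 tumors of day 3 in 1 fit, and p-values were adjusted by Benjamini-Hochberg at 0.05. The SE is the log2 fold change divided by the square root of F. Groups overlapped unless every CPM of one lay beyond those of the other. Alternatives were other scaling, no filter, fewer tumors, a replicate block, a threshold of an unadjusted p under 0.05 with 2-fold, and DESeq2 1.42.0; 2 that left out control tumors 3 and 5, or fitted 9 tumors without INDO 3, were chosen after seeing the data. The fit was also run on simulated counts. These were drawn independently with no outlier tumor, so that run cannot tell how single tumors such as INDO tumor 3 moved the results. Gene classes and positions are from GENCODE (GRCm38), matched by symbol, and sequences from RefSeq GRCm38.p6.

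The genes named are every tested member of the 2 prostaglandin lists, up to 4 called members of each other list by smallest p, the 15 largest called changes in each direction with no overlap and a mean of 1 log2 CPM or more (symbols without an established name, pseudogenes and antigen receptor segments left out), and genes the study names; any others were chosen after their values were seen, among them Gas1, Cxcl12, Mmp13, Postn, Acta2, Fn1, Il6, Il1a, Flt1, Pecam1, Isg15 and Ebf1. The comparison, the 34 lists (635 of 638 members matched) and these rules were chosen with earlier results of these data known.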

Additional observations from a re-analysis of the deposited data

Results flagged for a closer look

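A tumor was listed where its gap to the nearest other tumor of its group of 5 was large for the range of that group by Dixon's test at the 95% level. Over 264 groups of 5 this gave 36 values, 20 of them in INDO tumor 3, 7 in other INDO tumors and 9 in controls, where chance gives about 1 in 20 groups. The number for INDO tumor 3 is no independent evidence about it, since that tumor was singled out beforehand for its lymphocyte transcripts and several of the genes were named because it raised them.

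Within the INDO group, tumor 3 stood high for the summed CPM of T cell markers (795.1), B and plasma cell markers (1834), neutrophil markers (730.8), adipocyte markers (189.7) and skeletal muscle markers (6695). Its T and B cell sums lay above every control. Its neutrophil, adipocyte and muscle sums lay inside the control ranges (546.7 to 874.4, 76.43 to 360.7 and 1502 to 17980 CPM). Single genes high in INDO tumor 3 were Igkc (460.2 CPM), Glycam1 (152.6), Pax5 (109.7), Cr2 (100.6), Jchain (77.55), Ms4a1 (76.14), H2-Ob (51.07), Cd4 (48.47), Irf3 (37.31), Cd8a (28.28), Ifi208 (19.42), Pla2g2d (12.85), H2-Oa (12.02) and Tbxa2r (3.573), and Per3 was low in it at 9.611 CPM.

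Other INDO tumors stood apart for single genes: INDO tumor 1 was high for Hpgds (30.51 CPM), Pi16 (9.452), Ccl11 (4.798) and Cd209f (1.53), and INDO tumor 4 was high for Ptgdr (0.2081) and low for Cbr1 (4.084) and Gzmb (1.873).

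Among controls, tumor 4 was high for skeletal muscle markers (17980 CPM) and Prg4 (19.32) and low for dendritic cell markers (271.3) and Irf7 (39.93). Control tumor 2 was high for mast cell markers (96.77 CPM), Ptger3 (1.596) and Pla2g5 (1.399), control tumor 5 was high for Il11 (5.461), and control tumor 1 was low for Mus81 (9.836).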

How the results depend on the processing

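With each tumor of the pair left out in turn, the higher calls numbered 110 to 743 and the lower calls 488 to 1094; fibroblast genes lower 16 to 17, endothelial genes lower 11 to 16, adipocyte genes lower 1 to 6, interferon-stimulated genes higher 0 to 13 and B cell genes higher 0 to 12. Of the main 519 higher and 862 lower calls, housekeeping scaling gave 184 higher, no filter 218, only the 10 tumors 73 and 408 lower, without control tumors 3 and 5 33 and 496, DESeq2 1345 and 1424, and 2-fold with an unadjusted p under 0.05 864 higher; 9 tumors without INDO tumor 3 gave 206 higher, against 536 with the other groups in the fit. Interferon-stimulated genes (4) numbered 2 with no filter or without 6 Gy + INDO, 0 with 10 tumors or without controls 3 and 5, 11 with DESeq2 and 7 with 9 tumors. B cell genes (10) numbered 1 without 6 Gy + INDO and 0 with 10 tumors, 9 tumors, DESeq2 or without controls 3 and 5. Adipocyte genes (5) numbered 3 with housekeeping scaling, 1 with 10 tumors and 2 with 9. DESeq2 called 61 and 15 differences between days. Without INDO tumor 3 the sign turned for the called genes Igkc (-0.77; up to 9.35 with another tumor left out), Ms4a1 (-0.53; 7.47), Glycam1 (-1.80; 8.75), Cr2 (-0.30; 5.72), and for Ebf1 (-1.32; 0.30), which was then called lower, and with 9 tumors for Cr2 (-0.30) and Ebf1 (-1.33). Genes called in neither fit turned as well, such as Pla2g2d (2.64 with all tumors, -1.26 without INDO tumor 3), Tbxa2r (1.60, -0.80) and Cd4 (1.24, -1.27). The causes were not tested. Of 45 named falls 21 passed in all 19 alternatives and 7 were lost without controls 3 and 5; of 28 named rises 1 and 25.

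Same-numbered tumors correlated at r from -0.175 to 0.357, and for numbers 2 and 5 the best-matching control had the same number. So few values cannot decide whether the numbers pair the tumors. With a replicate block the calls were 16 higher and 181 lower, with fibroblast genes 9, endothelial 5, adipocyte 0, interferon-stimulated 1 and B cell 0. Totals of 34.7 to 87.2 M counts left genes with few reads untested.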
